A study of Mus musculus with 6 samples.

Results

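The Bcl2 family decides whether a cell releases cytochrome c from its mitochondria and dies, and 10 of its transcripts were followed here in double-positive (DP) thymocytes without the mir181a1/b1 locus, which encodes miR-181a-1 and miR-181b-1. The members were chosen by name: the guardians Bcl2, Bcl2l1 and Mcl1, the BH3-only genes Bcl2l11, Bbc3, Pmaip1, Bad and Bid, and the effectors Bax and Bak1. Each name matched 1 model of the authors' table, so these are 10 of 37867 gene models, and the authors tested all 10 among 13834 tested models. DP thymocytes carry both CD4 and CD8 and form the stage where a developing T cell first has its alpha-beta receptor tested. The mir181a1/b1 Knockout group (KO) and the Wild type group (WT) each held 3 libraries made from sorted DP cells, all of the strain given as C57bl6. The labels state neither age and sex of the mice, nor how far the deletion extends, nor whether each library was a different animal.

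The guardians Bcl2, Bcl-xL (from Bcl2l1) and Mcl-1 hold the effectors Bax and Bak in check. BH3-only proteins such as Bim (from Bcl2l11), Puma (from Bbc3), Noxa (from Pmaip1), Bad and Bid bind the guardians, and some of them also activate the effectors, which then open the outer mitochondrial membrane. In the thymus, DP cells are known for low Bcl2 and for a survival that depends on Bcl-xL and Mcl-1, while Bim is needed for the deletion of self-reactive cells. MicroRNAs of the miR-181 family pair through their seed, bases 2 to 8, with matching sites that lie mostly in 3′ UTRs.

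The mature microRNAs of the deleted locus are shown because their seed defines which member transcripts hold a match. They come from RefSeq on GRCm38.p6, and capitals mark the seed, which both share.
mmu-miR-181a-5p: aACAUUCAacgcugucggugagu
mmu-miR-181b-5p: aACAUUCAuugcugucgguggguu
RefSeq lists the same mature sequences for Mir181a-2 and Mir181b-2 on chromosome 2, a locus the labels do not name as deleted. The match to the seed, TGAATGT, stood once in the 3′ UTR of 4 of the 10 members, Bcl2, Bcl2l11, Bcl2l1 and Pmaip1, in the longest complete coding transcript of each in GENCODE M21 (GRCm38). The sites of 3 of them are shown, on the strand of the transcript, with the match in capitals.
Bcl2: ataatcaggacTGAATGTagataatgggt
Bcl2l11: aatatttgttgTGAATGTaaacaagggag
Bcl2l1: cacttgtggtcTGAATGTtctcctgaggc
In Bcl2 the match covered bases 3427 to 3433 of a 3′ UTR of 5086 bases, and in Bcl2l11 bases 219 to 225 of 4218. Both were followed by an A, the form of site usually found to be the strongest. The match in Bcl2l1, at bases 604 to 610 of 1473, was followed by a T. No match was found in the 3′ UTRs of Mcl1, Bad, Bid, Bbc3, Bax and Bak1, the shortest of which was that of Bax at 165 bases. Long 3′ UTRs hold such a match often: it occurred in 48.9% of 501 genes whose 3′ UTR was 0.8 to 1.25 times as long as that of Bcl2, in 40.6% of 762 genes for Bcl2l11 and in 20.5% of 1457 genes for Bcl2l1.

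The authors deposited 1 pooled FPKM value per genotype, which is read density scaled for transcript length and library size. Comparing levels between genes by FPKM assumes that base composition does not alter read density, which was not tested. With single libraries not used here, there is neither an SD nor an overlap of libraries to report. The error given is the standard error (SE) of the log2 ratio implied by the authors' test statistic, and a gene is called changed where the authors' q is under 0.05. Neither labels nor table say how that statistic came about, so its p-values may measure only technical spread between libraries, and the depth is unknown. All ratios are KO over WT. The median log2 ratio of all tested models was -0.17, and FPKM summed to 297352 in KO and 360688 in WT. The 8 defining markers of DP cells ranged from 162 to 1241 FPKM in KO and from 134 to 1683 FPKM in WT, and none was called (lowest q 0.154 in the authors' deposited table). Of 17 markers of B cells, myeloid cells, dendritic cells, erythroid cells and thymic stroma found in the table, 3 were at 0 in KO and 2 in WT. Their levels summed to 4.77 FPKM in KO and 9.32 FPKM in WT, and the highest was the myeloid lysozyme gene Lyz2, listed as Lyzs, at 1.61 FPKM in KO and 2.57 FPKM in WT. Called lower were Itgam, an integrin of myeloid cells, at 1.02 FPKM in KO and 2.11 FPKM in WT (q = 0.0413 in the authors' deposited table), and Epcam, an epithelial adhesion gene listed as Tacstd1, at 0.932 FPKM in KO and 2.30 FPKM in WT (q = 0.00844 in the authors' deposited table). The part of such cells in the members' changes was not tested. In bulk RNA of this kind, fewer cells that express a gene and less RNA per cell cannot be told apart.

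Between the genotypes, Mcl1 rose in KO cells while Bcl2l1, Bad, Bbc3, Bax and Bak1 fell, and Bcl2, Pmaip1, Bid and Bcl2l11 did not pass the test. These are the calls as deposited: the 5 that fell have the most GC-rich transcripts of the family, and none of them was called once a trend with GC content and length was subtracted, while Mcl1 was still called higher. In the deposited values the most abundant member was Mcl1 at 168 FPKM in KO and Bcl2l1 at 118 FPKM in WT. Mcl1 stood at 109.5 FPKM in WT, and whether Mcl1 and Bcl2l1 differed within WT cells cannot be said. Higher calls covered 1 of 10 members, against 1.79% of all tested models, and lower calls covered 5 of 10, against 15.3% of all tested models (17.1% in either direction). In the deciles of coding genes by GC content that hold the 5 fallen members, 52.3% and 71.1% were called lower. The median log2 ratio of the members was -0.76. Since the members were chosen with results of these data known, the counts are a description.

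**Figure D1:**
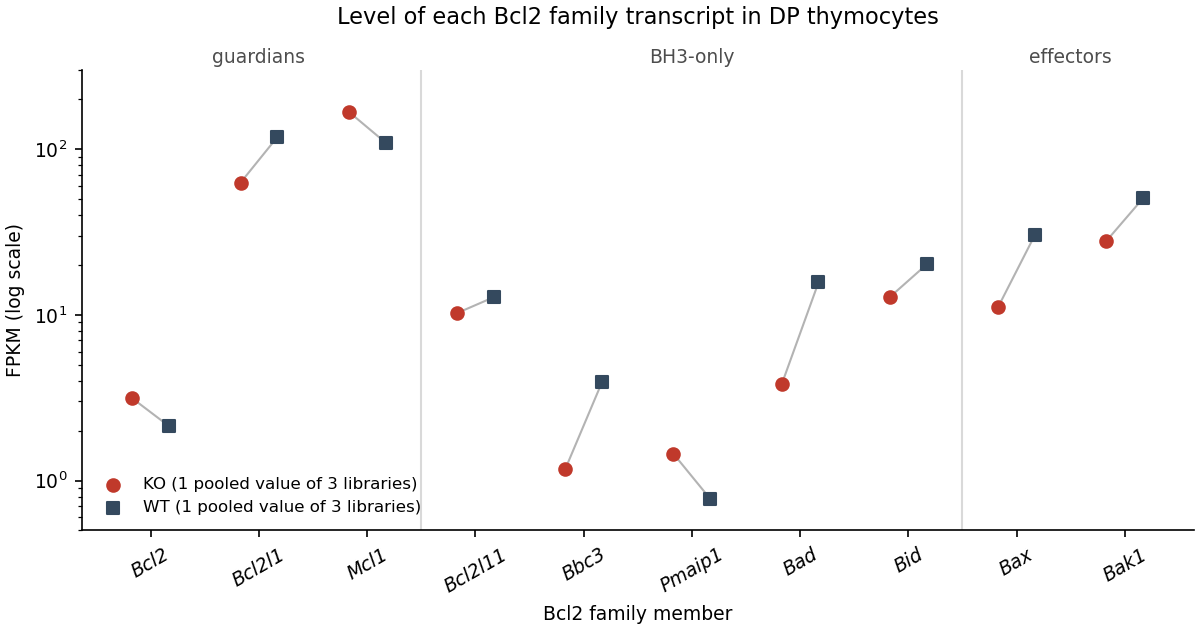
Level of each member in FPKM on a log scale, 1 pooled value per genotype (KO circles on the left of each pair, WT squares on the right), grouped by role. Mcl1, Bcl2 and Pmaip1 have the KO value above the WT value, and the other 7 members have it below.

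Among the guardians, Mcl1, a short-lived protein that binds Bim, Noxa and Bak, stood at 168 FPKM in KO and 109.5 FPKM in WT. This was a 1.54-fold higher level in KO (log2 0.62, SE 0.21, 95% interval 0.20 to 1.03, q = 0.0254 in the authors' deposited table). Mcl1 lay at percentile 98.7 of all tested models by level in KO and at 96.4 in WT, so it was among the most abundant transcripts in both genotypes. Its model spans 95462642 to 95467101 of chromosome 3 (mm9), and no other model overlaps it.

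Bcl2l1, whose protein Bcl-xL is the survival factor typical of the DP stage, stood at 62.7 FPKM in KO and 118 FPKM in WT, which is 53.1% of the WT level (log2 -0.91, SE 0.24, 95% interval -1.39 to -0.43, q = 0.00247 in the authors' deposited table). It spans 152606403 to 152657418 of chromosome 2 (mm9). Mcl1 and Bcl2l1 therefore moved in opposite directions in the deposited values. Their log2 ratios differed by 1.53 (SE 0.32, 95% interval 0.90 to 2.17), and Mcl1 was 2.68 times the level of Bcl2l1 in KO and 0.927 times its level in WT. Neither level has a spread of its own in the table, so whether the 2 differed within WT cells cannot be said.

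Bcl2 itself, which is low at this stage and returns in mature T cells, stood at 3.13 FPKM in KO and 2.13 FPKM in WT. The change did not pass the threshold (log2 0.56, SE 0.28, 95% interval 0.01 to 1.11, q = 0.176 in the authors' deposited table), although its unadjusted p was 0.0478 there. The ratio of Mcl1 to Bcl2 levels was 53.7 in KO and 51.5 in WT, and the difference of the 2 log2 ratios was 0.06 with a 95% interval of -0.63 to 0.75. The interval does not show that they moved alike. The span listed for Bcl2 is 108434755 to 108610867 of chromosome 1 (mm9). The only other model over it has the same span listed and was at 0 in both genotypes.

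Summed over the guardians, the level was 234 FPKM in KO and 229.8 FPKM in WT, a ratio of 1.02. As deposited, the sum hides a shift in the shares of its parts. Mcl1 made up 71.9% of it in KO and 47.7% in WT, Bcl2l1 26.8% in KO and 51.4% in WT, and Bcl2 1.34% in KO and 0.926% in WT. Without Mcl1 the sum had a log2 ratio of -0.87, and without Bcl2l1 one of 0.62. The shares rest on the deposited values. Once a trend with GC content and length was subtracted, Bcl2l1 had a log2 value of -0.09. With KO values divided by that trend, the guardian sum was 294 FPKM in KO against 229.8 FPKM in WT.

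**Figure D2:**
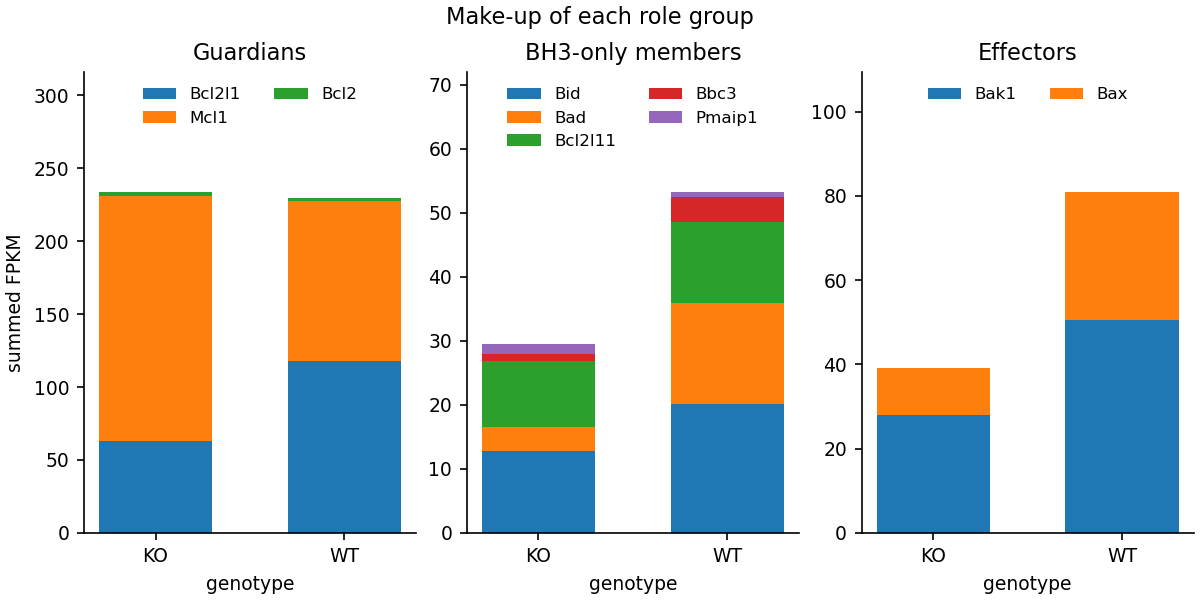
Summed FPKM of the guardians, the BH3-only members and the effectors (bars from 0, KO left and WT right, 1 pooled value each), with each member as a coloured segment. The guardians have nearly the same height in KO and WT with a larger Mcl1 segment in KO, and the other groups are lower in KO as deposited.

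Of the 5 BH3-only members, 2 fell, none rose and 3 were not called. Bad, whose protein binds Bcl2 and Bcl-xL unless Akt phosphorylates it, showed the lowest ratio of the family. It stood at 3.80 FPKM in KO and 15.7 FPKM in WT, or 24.3% of the WT level (log2 -2.04, SE 0.44, 95% interval -2.90 to -1.19, q = 7.56e-05 in the authors' deposited table). Its model on chromosome 19, 7012559 to 7026383 (mm9), shares that span with Gpr137, which stood at 0.820 FPKM in KO and 3.25 FPKM in WT (log2 -1.98, q = 0.0357 in the authors' deposited table). Strand is not kept by the library kit in use, and the division of reads within a shared span is not stated.

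Bbc3, a p53 target whose protein Puma binds all guardians, stood at 1.17 FPKM in KO and 3.92 FPKM in WT, or 29.8% of the WT level (log2 -1.75, SE 0.38, 95% interval -2.50 to -0.99, q = 0.000137 in the authors' deposited table). It was the lowest of the 10 members in KO and the eighth by level in WT. Pmaip1, another p53 target, whose protein Noxa binds Mcl-1, was the lowest in WT. It stood at 1.45 FPKM in KO and 0.775 FPKM in WT, and did not pass the threshold (log2 0.90, SE 0.39, 95% interval 0.15 to 1.66, q = 0.0914 in the authors' deposited table). When ratios were centred on the median of all tested models, Pmaip1 passed at a log2 ratio of 1.07 and an adjusted p of 0.0412. Both genes are at levels of a few FPKM, where adding 1 FPKM to each value shrinks the log2 ratio to -1.18 for Bbc3 and to 0.46 for Pmaip1.

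Bcl2l11, whose protein Bim triggers death of thymocytes after strong receptor signals, stood at 10.2 FPKM in KO and 12.8 FPKM in WT. It was the member with the ratio nearest to 0 (log2 -0.32, SE 0.32, 95% interval -0.94 to 0.30, q = 0.593 in the authors' deposited table). The span listed for it, 127680363 to 127990809 of chromosome 2 (mm9), covers 310447 bases. The same span is listed for 3 other models, so it need not be the extent of Bcl2l11 alone. The highest of those models was Acoxl at 0.530 FPKM in KO and 1.30 FPKM in WT. Bid, which is cut by caspase-8 and links death receptors to mitochondria, stood at 12.8 FPKM in KO and 20.2 FPKM in WT (log2 -0.65, SE 0.27, 95% interval -1.19 to -0.12, q = 0.0825 in the authors' deposited table). Bid was the most abundant BH3-only member in both genotypes, with 43.5% of the group's sum in KO and 37.8% in WT. The share of Bcl2l11 was 34.7% in KO and 24.0% in WT, and that of Bad 12.9% in KO and 29.4% in WT.

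The effectors both fell in the deposited values. Bax stood at 11.2 FPKM in KO and 30.4 FPKM in WT, or 36.7% of the WT level (log2 -1.45, SE 0.36, 95% interval -2.15 to -0.74, q = 0.00103 in the authors' deposited table). Bak1, which encodes Bak, stood at 27.9 FPKM in KO and 50.6 FPKM in WT, or 55.2% of the WT level (log2 -0.86, SE 0.31, 95% interval -1.46 to -0.26, q = 0.0329 in the authors' deposited table). The call of Bak1 was lost when ratios were centred on the median of all tested models (log2 -0.69 with an adjusted p of 0.114). Bak1 remained the more abundant effector, at 2.50 times the level of Bax in KO and 1.67 times in WT. Bax spans 52717064 to 52722268 of chromosome 7 (mm9). The span listed for Bak1, 27110123 to 27173323 of chromosome 17, is also the one listed for Zbtb9 and for 2 models under 1 FPKM. It need not be the extent of Bak1 alone. Zbtb9 stood at 7.61 FPKM in KO and 8.87 FPKM in WT.

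Set against the guardians, the BH3-only sum was 29.5 FPKM in KO and 53.3 FPKM in WT, which is 0.126 of the guardian sum in KO and 0.232 in WT. That sum leaves out Bmf, a BH3-only gene that is not among the members, at 20.0 FPKM in KO and 26.4 FPKM in WT. The effector sum was 39.1 FPKM in KO and 81.0 FPKM in WT, or 0.167 of the guardian sum in KO and 0.352 in WT. These ratios do not depend on how libraries are scaled, and they rest on Mcl1. With Mcl1 left out, the BH3-only sum was 0.448 of the remaining guardians in KO and 0.443 in WT, and the effector sum 0.593 in KO and 0.673 in WT.

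The members' ratios followed the base composition of their transcripts. Pmaip1, Bcl2 and Mcl1, at 42.1%, 46.3% and 48.7% GC, had positive log2 ratios, and Bcl2l11 at 48.0% and Bid at 50.4% had negative ones nearer to 0 than the other negative ratios. The 5 members that fell were the 5 with the highest GC content, Bcl2l1 at 55.9%, Bak1 at 57.1%, Bad at 57.1%, Bax at 59.2% and Bbc3 at 65.2%. Over the 10 members Spearman's rho of the log2 ratio was -0.92 with GC content and 0.81 with transcript length, given as a description of genes measured in the same libraries. Over 8990 coding genes that had a reference transcript and averaged 1 FPKM or more, the rho with GC content was -0.763, and 19.3% were called lower and 1.56% higher. Of the deciles with the fallen members, that of Bcl2l1, Bad and Bak1 had 52.3% called lower and that of Bax and Bbc3 71.1%. In the decile that holds Mcl1 and Bcl2l11, 5.01% were called lower and 1.11% higher.

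**Figure D3:**
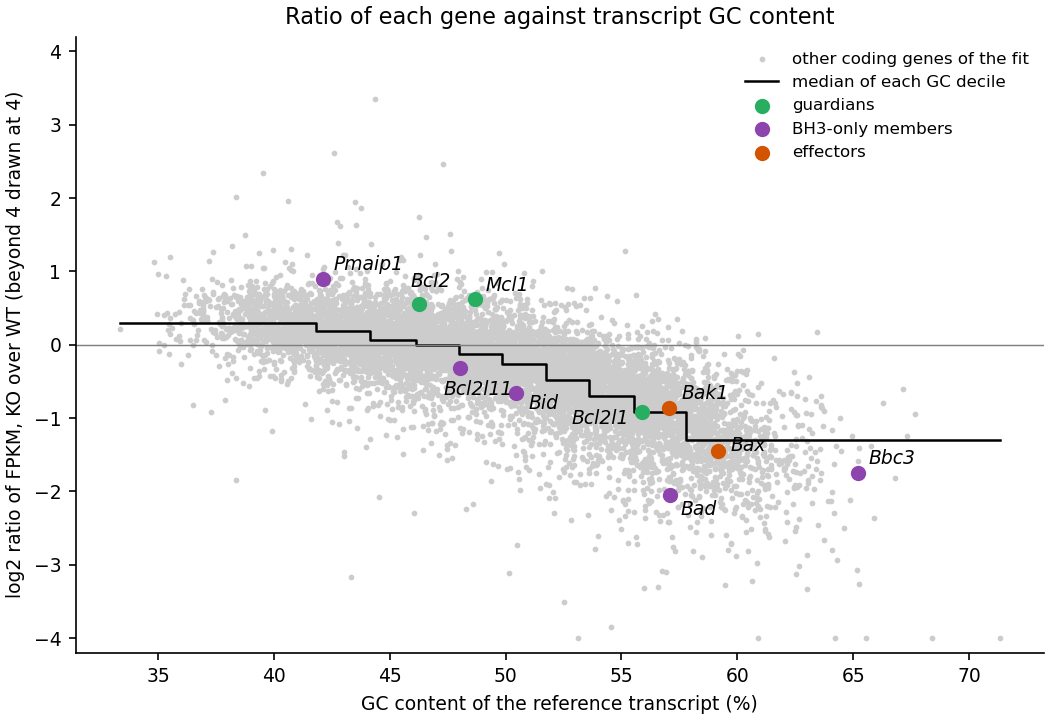
Log2 ratio of FPKM, KO over WT, against GC content of the reference transcript for the 10 members (coloured by role) and the other coding genes of the fit (grey), with the median of each GC decile as a black step line. Mcl1, Bcl2 and Pmaip1 lie above the line, Bad, Bcl2l11 and Bid below it, and Bcl2l1, Bak1 and Bax close to it; Bbc3 lies at the far right, where the last step spans a wide range of GC.

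Once a trend with GC content and length, fitted over all 8990 genes, was subtracted, Mcl1 was the only member still called. Its log2 value was 0.72 (95% interval 0.31 to 1.14, with an adjusted p of 0.0428 over all genes fitted), against a trend of -0.10 for a transcript of its composition. Among all genes of this fit 1.71% were called, 0.779% higher and 0.934% lower. The p after the subtraction is a normal tail with the SE of the authors' statistic, not a test over libraries. With the shortest coding transcript of each gene as the reference, the log2 value of Mcl1 was 2.08. That transcript of Mcl1 holds 858 bases in place of 3418.

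For the members that had fallen, the trend was about as large as the deposited ratio in all but Bad. It was -0.82 for Bcl2l1, -1.81 for Bbc3, -1.58 for Bax and -0.97 for Bak1. The values that remained were -0.09 for Bcl2l1 (95% interval -0.57 to 0.39), 0.07 for Bbc3 (-0.69 to 0.82), 0.14 for Bax (-0.57 to 0.85) and 0.11 for Bak1 (-0.49 to 0.71). The last 3 thus changed sign, and their intervals span 0. The value of Bcl2l1 depended on the reference transcript. With the shortest coding transcript of each gene it was -0.76 (adjusted p of 0.0524). Bad kept a negative value, -0.96 (95% interval -1.81 to -0.11), with an unadjusted p of 0.0274 and an adjusted p of 0.365.

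The subtraction shifted the uncalled members less than those that had fallen. Pmaip1 had a log2 value of 0.73 after the subtraction (95% interval -0.02 to 1.49, adjusted p of 0.527) and Bcl2 one of 0.41 (-0.15 to 0.96, adjusted p of 0.773). Bid stood at -0.37 and Bcl2l11 at -0.33, with adjusted p values of 0.801 and 0.924. Mcl1 and Bcl2l1 stayed apart, by 0.81 log2 units (95% interval 0.18 to 1.45), and so did Mcl1 and Bcl2l11, by 1.05 (0.30 to 1.80), and Mcl1 and Bad, by 1.68 (0.73 to 2.63). The difference of Mcl1 from Bax, Bak1 and Bbc3 was 0.58, 0.61 and 0.65, and each interval spans 0. That from Pmaip1 was -0.01 (-0.88 to 0.85), that from Bcl2 0.32 (-0.38 to 1.01) and that from Bid 1.10 (0.42 to 1.77). With the KO values divided by the trend, the guardian sum was 294 FPKM in KO against 229.8 FPKM in WT, the BH3-only sum 39.2 FPKM in KO against 53.3 FPKM in WT, and the effector sum 88.2 FPKM in KO against 81.0 FPKM in WT. The BH3-only sum was then 0.133 of the guardian sum in KO and 0.232 in WT, and the effector sum 0.2997 of it in KO and 0.352 in WT. The direction of the effectors therefore turned with the treatment of base composition, and whether that trend is technical or follows from the genotype cannot be told apart in this table.

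**Figure D4:**
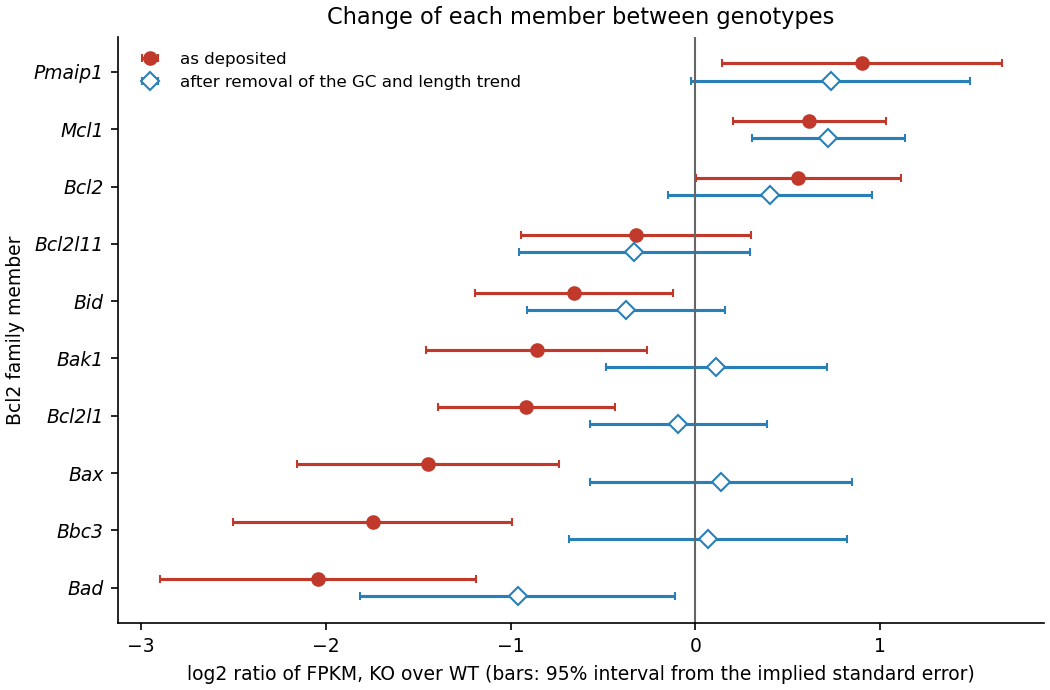
Log2 ratio of FPKM, KO over WT, of each member as deposited (filled circles) and once the trend with GC content and length is subtracted (open diamonds), with 95% intervals from the implied standard error. Mcl1 lies right of 0 with both intervals, Bad lies left of 0 with both, and Bbc3, Bax, Bcl2l1 and Bak1 move from the left to about 0.

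The members with a seed match showed no common direction. Bcl2 and Pmaip1 had log2 ratios of 0.56 and 0.90, and Bcl2l11 and Bcl2l1 had -0.32 and -0.91. Mcl1, the only member called higher, holds no match in the transcript searched. Its log2 ratio differed from that of Pmaip1 by -0.28 (95% interval -1.15 to 0.58) and from that of Bcl2 by 0.06 (-0.63 to 0.75). Of the members with a match, Bcl2l1 alone was called as deposited. Once the trend was subtracted, Bcl2, Pmaip1, Bcl2l11 and Bcl2l1 stood at 0.41, 0.73, -0.33 and -0.09, and none was called. Between the members whose match is followed by an A, the log2 ratio of Bcl2l11 was below that of Bcl2 by 0.88 (95% interval of the difference -1.71 to -0.04), and Bcl2l11 was 3.27 times the level of Bcl2 in KO and 6.01 times in WT. After the trend was subtracted, the difference was -0.74 (-1.57 to 0.10). Over all genes fitted, 1655 with a match (18.4%) had a median log2 ratio of 0.09 and 7335 without one had -0.34, at a median GC content of 46.3% with a match and 50.7% without. After the trend was subtracted the medians were 0.06 with a match and -0.01 without. The 547 genes with a match followed by an A had a median log2 ratio of 0.19, and of 0.11 after the subtraction, at a median GC content of 45.7%. The median 3′ UTR was 2385 bases with a match, 2631 with a match followed by an A and 928 without one. The trend holds the length of the whole transcript, and the part of 3′ UTR length in these medians was not tested.

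The wider machinery of apoptosis was described with 6 lists of 86 other genes, all of them in the table under their symbol or an older one, of which 72 were tested. Tnfsf10, which encodes the death ligand TRAIL, rose and 10 genes fell, or 1.39% and 13.9% of those tested, close to the shares of all tested models. Tnfsf10 stood at 7.76 FPKM in KO and 2.52 FPKM in WT (log2 1.62, SE 0.28, q = 3.55e-07 in the authors' deposited table) and was still called after the trend was subtracted (log2 1.39, adjusted p of 0.000168). None of the 9 fallen genes that could be fitted was called after the subtraction.

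Of 11 tested genes of the other Bcl2 family list, Bcl2l12, a distant relative of the family, fell and none rose. It stood at 6.34 FPKM in KO and 23.1 FPKM in WT (log2 -1.87, SE 0.42, q = 0.000161 in the authors' deposited table). Bmf, another BH3-only gene, was above each of the 5 BH3-only members in both genotypes, at 20.0 FPKM in KO and 26.4 FPKM in WT (q = 0.294 in the authors' deposited table). Bcl2a1a, Bcl2a1b and Bcl2a1d, guardians with nearly identical copies whose reads may be split, reached at most 0.475 FPKM in KO and 1.17 FPKM in WT, and Bcl2l2 stood at 0.0656 FPKM in KO and 0.137 FPKM in WT. The list had a median log2 ratio of -0.36.

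Downstream of the mitochondria, 1 of 14 tested genes of the apoptosome and the caspases fell and none rose, with a median log2 ratio of -0.31. The apoptosome scaffold Apaf1 stood at 15.4 FPKM in KO and 12.1 FPKM in WT (q = 0.539 in the authors' deposited table). The initiator Casp9 stood at 3.90 FPKM in KO and 4.01 FPKM in WT (q = 0.975 in the authors' deposited table), so neither passed. None of 5 tested inhibitors of apoptosis (IAPs) was called, with a median of 0.29. Xiap, which blocks caspases directly and is listed as Birc4, stood at 35.7 FPKM in KO and 23.7 FPKM in WT (log2 0.59, SE 0.26, q = 0.108 in the authors' deposited table). Beside Tnfsf10, the death receptor list had 2 of 8 tested genes lower, the TNF receptor Tnfrsf1a (24.1 FPKM in KO, 39.8 FPKM in WT, q = 0.0311 in the authors' deposited table) and its adaptor Tradd (6.32 FPKM in KO, 13.3 FPKM in WT, q = 0.00689 in the authors' deposited table). Its median was -0.16.

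Among 16 tested transcriptional regulators of the members, 4 fell and none rose, with a median of -0.51. Stat5a and Stat5b, which relay interleukin-7 signals to survival genes, stood at 25.2 and 50.3 FPKM in KO and at 53.1 and 95.7 FPKM in WT (q = 0.00022 and 0.00102 in the authors' deposited table). E2f1, a cell cycle factor that can induce BH3-only genes, stood at 3.60 FPKM in KO and 8.89 FPKM in WT (q = 0.00751 in the authors' deposited table). The fourth, Egr1, an early response gene, is named beyond the rule after its values were seen, at 34.0 FPKM in KO and 53.3 FPKM in WT. The p53 gene Trp53, which drives Bbc3 and Pmaip1, stood at 35.7 FPKM in KO and 44.6 FPKM in WT and did not pass (q = 0.529 in the authors' deposited table). Among 18 tested genes for turnover and anchoring of the proteins, Trim17, a ubiquitin ligase of Mcl-1, and Pacs2, a sorting protein that acts on Bid, fell. Trim17 stood at 7.37 FPKM in KO and 16.0 FPKM in WT (q = 0.0217 in the authors' deposited table) and Pacs2 at 8.85 FPKM in KO and 16.6 FPKM in WT (q = 0.0167 in the authors' deposited table). None of that list rose, and its median log2 ratio was 0.09.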

How the data were processed

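RNA of 6 libraries, 3 KO and 3 WT, was compared through 1 table. Per the labels' protocols, RNA of sorted cells was extracted with Trizol or a column kit and sequenced from TruSeq RNA libraries. The submitters' processing notes name TopHat2 and mm9. The tool that counted and tested is not given in the sources. Per the file headers, the authors deposited 1 FPKM value per genotype, a log2 ratio of WT over KO (turned here to KO over WT), a test statistic, p-values and q-values. The deposited q-values equalled Benjamini-Hochberg values over the 13834 tested models (largest difference 1.89e-06). SE is the size of the log2 ratio over that of the statistic, and pooled values give no depth and no SD.

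Members, gene lists and tests were chosen with earlier results of these data known. Named genes are the members and, per list, up to 3 called genes in each direction by smallest p, and others were named after their values were seen. Some genes of the lists are not reported here. Symbols were matched directly or through RefSeq synonyms to the longest complete coding transcript in GENCODE M21. Genes whose transcript exceeded 1.2 times the span of their model were left out, 70 in all. For 8990 coding genes of at least 1 FPKM, a robust regression (statsmodels 0.14.6) on cubic splines (5 pieces each) of GC content and of log2 transcript length was subtracted. The remainder was divided by the SE and adjusted by Benjamini-Hochberg, with the error of the trend not included. The fit was tested on simulated data. Alternatives were other thresholds, centring, expression minimums, a pseudocount of 1 FPKM, other transcripts and sums with a member left out. The division of KO values by the trend was chosen after seeing the data.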

Additional observations from a re-analysis of the deposited data

How the results depend on the processing

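The count of members called higher was 1 as reported, 0 at a q under 0.01, 2 at a q under 0.10 and 2 after centring. The count called lower was 5 as reported, 4 at a q under 0.01, 6 at a q under 0.10 and 4 after centring. It was 0 once the trend with GC content and length was subtracted, where Bbc3, Bax and Bak1 turned to 0.069, 0.14 and 0.11. What remained after that subtraction changed sign with how the trend was built: Bax was at -0.19 with GC content alone, and with the shortest coding transcripts Bax was at -0.26, Bbc3 at -0.30 and Bcl2l11 at 0.70. Those transcripts lack most of the 3′ UTR of Bcl2l11. With them, Bcl2l1 stood at -0.76 (adjusted p of 0.0524), against -0.09 in the main fit and -0.91 as deposited. Mcl1 was the 1 member called in each of these 3 fits. Its adjusted p was 0.0428 in the main fit, 0.0282 with GC content alone and 0.0485 over genes of at least 5 FPKM. With the shortest coding transcripts its value of 2.08 came from a reference of 858 bases in place of 3418. The log2 ratio of the guardian sum, 0.03 as reported, was 0.30 with FPKM scaled to equal totals, 0.62 without Bcl2l1, -0.87 without Mcl1 and 0.36 with KO values divided by the trend. That of the BH3-only sum, -0.86 as reported, was -0.58 scaled and -0.44 divided by the trend, and that of the effectors, -1.05 as reported, was -0.77 and 0.12. No paired analysis was possible because the table gives 1 pooled value per genotype, so leaving out single replicates could not be run either. Bcl2, Bbc3 and Pmaip1 were not in the fit of genes of at least 5 FPKM.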
